A study of Mus musculus with 9 samples.

Results

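The mitochondrial chromosome of the mouse carries 37 genes, all of those whose GENCODE M21 name begins with mt-: 13 for mRNAs, 2 for rRNAs and 22 for tRNAs. They are 37 of 56620 genes in the gene-level table, and all 37 are described here. Assembled loci and Ensembl transcripts not found in GENCODE M21 also count as genes in that table. The 9 RNA libraries, 3 in each of 3 groups, were made from primary cells bought from a supplier and labelled as microvascular endothelial cells of mouse lung. RA cells were kept for 48 h in room air with 21% oxygen, HO cells for 48 h in hyperoxia with 85% oxygen, and HO-rWNT5A cells for 48 h in 85% oxygen with 100 ng/ml recombinant WNT5A, a secreted WNT ligand. Neither RA nor HO cells received the protein, no group had WNT5A in room air, and the labels name no genetic change. The labels do not say whether the 3 libraries of a group are separate cultures. The p-values therefore cover only the spread among these libraries, and that spread may be technical.

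Mitochondrial DNA is transcribed from both strands as long precursors that run through many genes. The tRNAs lie between the other genes, and their excision frees the mRNAs and rRNAs. One strand's precursor, with genes annotated on the plus strand, yields both rRNAs, most tRNAs and all mRNAs but one. The other, annotated on the minus strand, yields mt-Nd6 and a few tRNAs among long stretches that are degraded. The mRNAs encode core subunits of the respiratory chain and of ATP synthase, and the rRNAs and tRNAs serve the ribosomes that translate them inside the organelle. Levels of these RNAs depend on the number of DNA copies, on transcription by the polymerase Polrmt with Tfam and Tfb2m, and on processing and decay.

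Levels are given as scaled FPKM, which is a fragment count corrected for transcript length and for the total mapped, divided by a factor for each library. A difference is a log2 fold change of scaled FPKM + 1 with its standard error (SE) from limma, and p-values were adjusted by Benjamini-Hochberg over the 13832 genes whose mean reached 1 FPKM. Depth, roughly estimated from the values, was 21300000 to 26500000 fragments per library, with RA replicate 1 highest and HO replicate 2 lowest. At those depths 1 FPKM of a 69-base tRNA rests on 1.47 to 1.83 fragments, and 1 FPKM of a 519-base mRNA on 11.1 to 13.8. All fragment numbers below rest on these depths and are as rough. Most defining markers of endothelium were near 0: of 9 such genes, 3 had a mean of at least 1 FPKM, Flt1 at 38.0, Emcn at 10.1 and Kdr at 1.01, while Pecam1 was at 0.0932, Cdh5 at 0.0544 and Vwf at 0.0442. Acta2, a smooth muscle actin, was at 1578 FPKM, and 5 of 7 smooth muscle and pericyte markers reached 1 FPKM, while Myh11 was at 0.237 and Rgs5 at 0.759. The summed level of those 7 was 2913 to 3260 in RA, 2393 to 3271 in HO and 2681 to 3077 in the HO-rWNT5A libraries. All 4 epithelial markers reached 1 FPKM, led by Krt18 at 54.8 and Krt8 at 31.3, with sums of 86.8 to 103 in RA, 80.7 to 108 in HO and 80.9 to 95.2 in the HO-rWNT5A libraries. Of 3 fibroblast markers 1 did, Col1a1 at 184, and of 3 leukocyte markers 2 did, Lyz2 at 4.49 and Cd68 at 1.44. The part of cell composition in the results was not tested. In bulk RNA, fewer cells of a type and less RNA per cell cannot be told apart.

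All 13 mRNAs were well above the filter in these cells, the tRNAs were spread over a wide range, and the rRNAs were nearly missing. The mRNA means over 9 libraries ran from 28.4 scaled FPKM for mt-Nd3 to 2095 for mt-Co1, with a median of 255. mt-Co1, which encodes the catalytic subunit of cytochrome c oxidase (complex IV), made up 36.7% to 46.1% of the mRNA sum of a library. mt-Co3, another core subunit of complex IV, followed at 648, then the complex I subunit mt-Nd6 at 469.8, the complex III subunit mt-Cytb at 344, the complex I subunit mt-Nd5 at 322 and the complex IV subunit mt-Co2 at 293. The SDs over the 9 libraries, which include differences between groups, were 201 for mt-Nd6, 117 for mt-Nd5 and 52.4 for mt-Cytb. Within each library mt-Nd6 was at 1.05 to 1.58 times the level of mt-Nd5. The order of mt-Nd6 and mt-Cytb depended on the group. mt-Nd6 was at 0.44 to 0.96 times mt-Cytb in RA, 1.46 to 3.54 times in HO and 1.30 to 1.61 times in the HO-rWNT5A libraries. Below them came mt-Atp6 of ATP synthase at 255, the complex I subunits mt-Nd1 at 133, mt-Nd4 at 128, mt-Nd2 at 71.3 and mt-Nd4l at 69.9, and mt-Atp8 at 53.8.

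Of the rRNAs, mt-Rnr1 of the small ribosomal subunit had a mean of 0.0409 scaled FPKM and was listed at 0 in 2 libraries. mt-Rnr2 of the large subunit had 1.37 ± 0.384 (SD, n = 9), the only rRNA to reach the filter. The sources used here do not say whether rRNA was removed from the libraries, so these levels say nothing of rRNA in the cells. Most of the mitochondrial signal was therefore mRNA. The mRNA sum was 4573 to 5311 scaled FPKM per library, the tRNA sum 263 to 359 and the rRNA sum 0.846 to 2.03, and all 37 genes together held 1.22% to 1.53% of a library's FPKM. The mRNA sum and this share leave out nuclear copies of mitochondrial genes, described below, some of them listed at nearly the level of the gene. The share is therefore uncertain.

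The tRNAs are 59 to 75 bases long, shorter than a 150-base read, and 18 of 22 had a mean of at least 1 FPKM. The highest was mt-Ts1 at 79.1, followed by mt-Ty at 41.5, mt-Te at 36.2, mt-Tt at 21.5, mt-Tc at 21.0 and mt-Ti at 20.1. mt-Tf was listed at 0 in all 9 libraries and mt-Tv in 8 of them, mt-Tl1 had a mean of 0.200 and mt-Tg of 0.49. The low end was not even along the chromosome: mt-Tf, mt-Tv and mt-Tl1 flank the rRNA genes, which were near 0 themselves. Levels differed by strand. The 8 minus-strand tRNAs had means from 5.27 to 79.1 with a median of 19.6, and the 14 plus-strand tRNAs from 0 to 21.5 with a median of 1.64. The highest pair, mt-Ts1 (mitochondrial chromosome, 6870 to 6938, minus) and mt-Ty (5260 to 5326, minus), lie on either side of mt-Co1 (5328 to 6872, plus), the most abundant mRNA. The sources do not say whether counting used strand, so fragments from the 2 strands over a gene cannot be told apart.

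**Figure D1:**
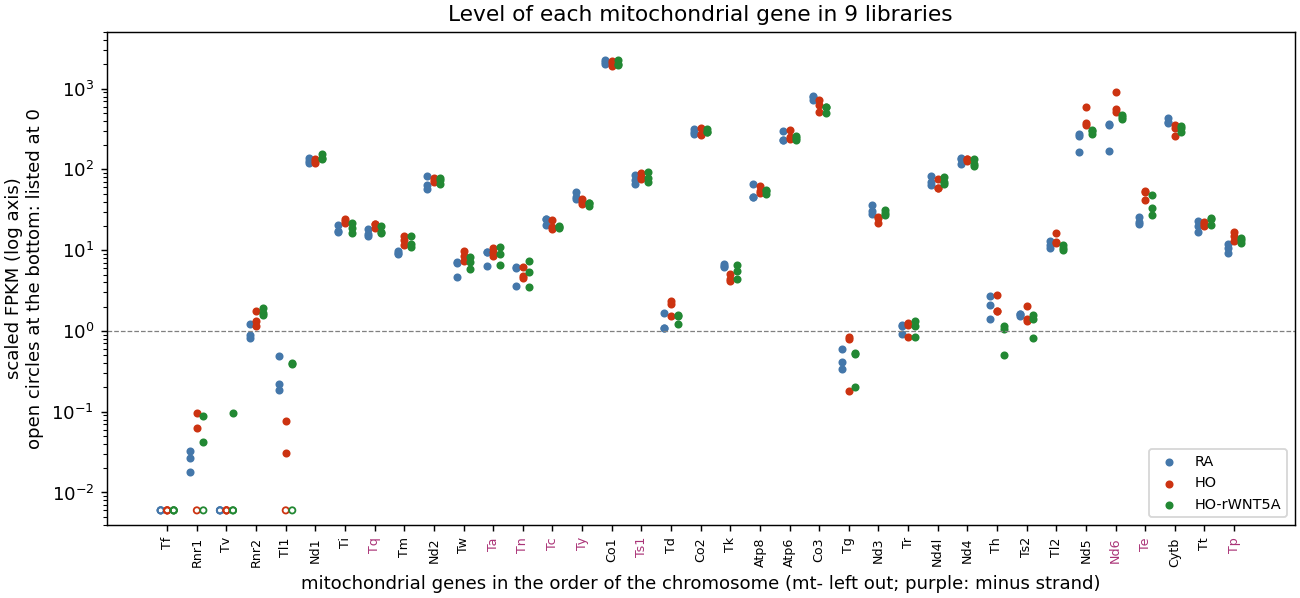
Scaled FPKM of the 37 mitochondrial genes on a log axis, in chromosome order, with 1 point per library coloured by group and open circles for a value listed at 0. The 13 mRNAs sit above both rRNAs in every library, and mt-Rnr1, mt-Tv, mt-Tf and mt-Tl1 lie at the bottom. The dashed line is at 1 FPKM. mt-Nd5, mt-Nd6 and mt-Te are among 8 tested genes with all HO points above RA, and 4 tested genes have all HO points below RA.

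The tRNA sequences on which the results turn are printed 5′ to 3′ as genomic letters from the GENCODE M21 transcripts (GRCm38), with the anticodon in capitals. mt-Te (glutamate), mt-Tp (proline) and mt-Tm (methionine) had the largest positive log2 differences of HO and RA among the tRNAs tested, mt-Tk (lysine) had the most negative, mt-Ts1 (serine) had the highest level, and mt-Tf (phenylalanine) was listed at 0.
mt-Te: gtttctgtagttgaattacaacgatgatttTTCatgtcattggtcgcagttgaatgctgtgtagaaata
mt-Tp: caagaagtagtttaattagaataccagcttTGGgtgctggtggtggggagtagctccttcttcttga
mt-Tm: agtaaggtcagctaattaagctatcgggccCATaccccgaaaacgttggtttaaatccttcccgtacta
mt-Tk: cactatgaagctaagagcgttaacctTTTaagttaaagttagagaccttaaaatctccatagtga
mt-Ts1: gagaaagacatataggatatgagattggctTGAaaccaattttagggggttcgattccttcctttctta
mt-Tf: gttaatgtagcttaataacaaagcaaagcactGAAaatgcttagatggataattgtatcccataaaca
None of these 6 ends in the letters CCA, which are added to a tRNA after its excision and are not written in the gene.

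The first comparison, HO against RA, asks what hyperoxia changed. 1 mitochondrial gene passed the threshold, the glutamate tRNA mt-Te, which was 2.16-fold higher in HO by the group means. The 2 genes before it on the chromosome, mt-Nd5 and mt-Nd6 of complex I, had mean levels 1.90-fold and 2.23-fold as high in HO but did not pass. The mRNAs mt-Co3, mt-Nd3 and mt-Cytb had lower levels in every HO library than in any RA library and did not pass either. The total of the mRNAs changed little in value.

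Of 32 members tested, 1 passed at a limma adjusted p under 0.05, where 1.97% of all genes tested passed, 1.21% as higher and 0.759% as lower. All 13 mRNAs, 18 tRNAs and 1 rRNA reached the filter. The log2 differences were positive in 21 members and negative in 11, with a median of 0.078, beside a median of -0.0039 over all genes. Groups did not overlap in 8 members higher in HO (25% of those tested, against 11.3% of all genes) and in 4 lower (12.5%, against 10.1%). At an unadjusted p under 0.05, 10 members were higher and 5 lower, against 9.68% and 8.47% of all genes. By strand, 7 of 9 minus-strand members and 14 of 23 tested plus-strand members had positive differences, with medians of 0.17 and 0.029. The members are cut from shared precursors and are not independent of each other.

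**Figure D2:**
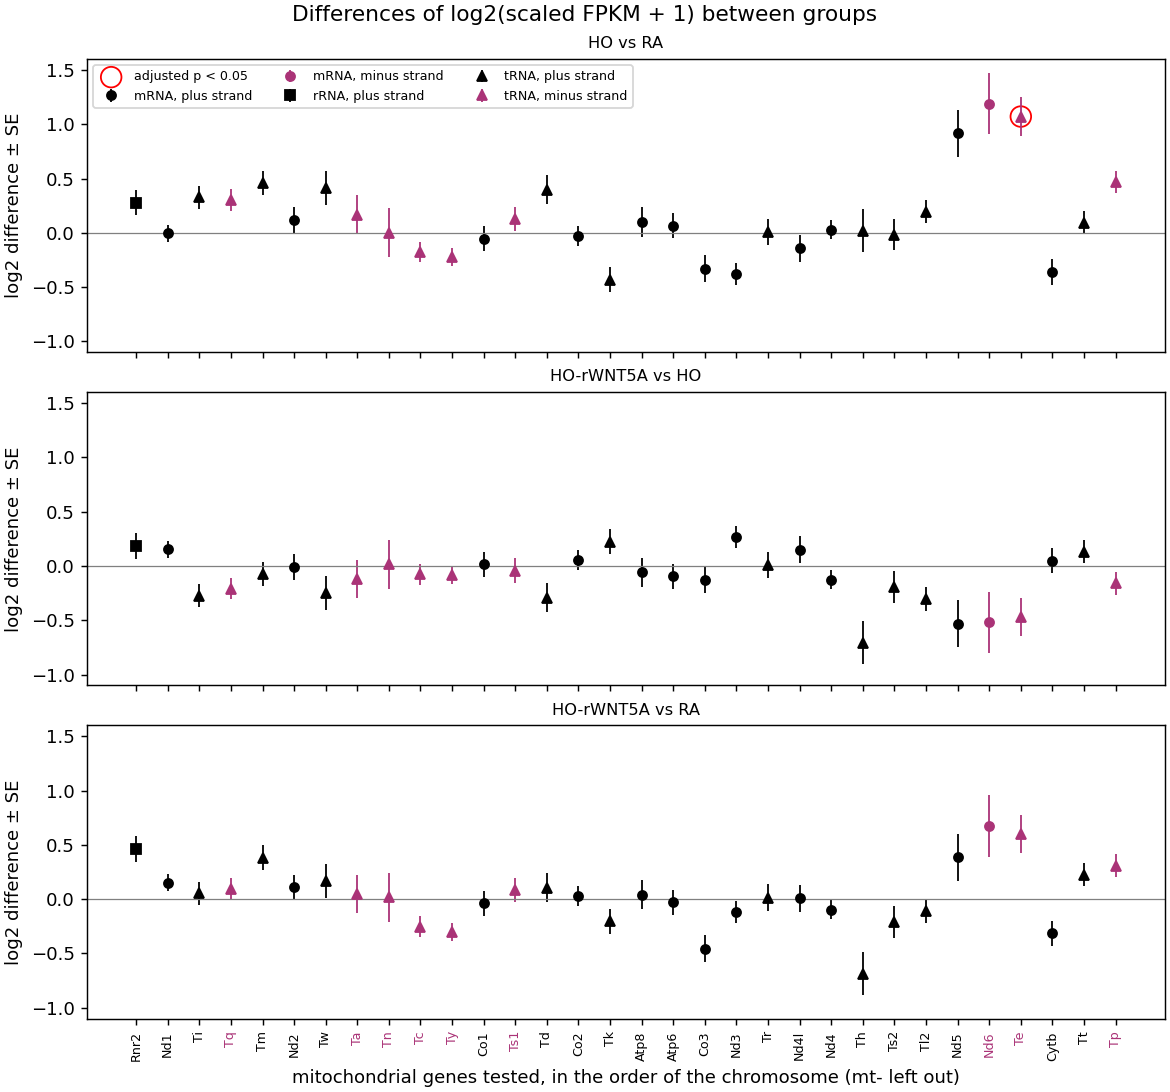
Log2 differences of scaled FPKM + 1 with SE for the 32 mitochondrial genes tested, in chromosome order, for the 3 comparisons, with symbols by class, purple for the minus strand and a red ring for an adjusted p under 0.05. In HO vs RA the neighbours mt-Nd5, mt-Nd6 and mt-Te stand at 0.92 to 1.19 and mt-Te alone is ringed, and no gene is ringed in the other comparisons.

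mt-Te carries glutamate to the mitochondrial ribosome (mitochondrial chromosome, 14071 to 14139, minus). It had 21.1, 22.3 and 25.4 scaled FPKM in RA replicates 1 to 3, 51.9, 54.7 and 41.6 in HO and 48.3, 27.3 and 32.9 in the HO-rWNT5A libraries. Every HO library was above every RA library, and so was every HO-rWNT5A library, of which replicate 1 lay among the HO values. mt-Te rose from 22.9 ± 2.25 in RA to 49.4 ± 6.89 in HO (SD, n = 3 each), a log2 difference of 1.07 ± 0.18 (SE, limma adjusted p = 0.0206). The values rest on roughly 36 to 46 fragments in RA and 63 to 83 in HO. The call was lost with any RA library left out (limma adjusted p = 0.0777 to 0.0951) and without HO replicate 2 (0.0671). It was also lost without RA replicate 1 and HO replicate 2 together (0.175) and with no filter on low genes (0.104). The log2 difference stayed between 0.94 and 1.19 over 21 alternatives. Calls over all genes fell too, from 272 to 24, 2 and 13 without RA replicates 1, 2 and 3, and to 106 without HO replicate 2.

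mt-Nd6, the complex I subunit whose gene adjoins mt-Te (13552 to 14070, minus), is the only mRNA annotated on its strand. Its levels were 170.5, 362 and 359 scaled FPKM in RA, 519, 913 and 559 in HO and 476, 420.4 and 449 in the HO-rWNT5A libraries. Both treated groups lay above all RA libraries, with RA replicate 1 lowest and HO replicate 2 highest of the 9. The means were 297 ± 109.6 in RA and 664 ± 217 in HO, a log2 difference of 1.19 ± 0.28 that did not pass (limma adjusted p = 0.0635). Without those 2 libraries the difference was 0.58 (adjusted p = 0.0860), and the groups still did not overlap. RA replicate 1 had the highest estimated depth. HO replicate 2 had the lowest, at 21300000 fragments, and HO replicate 3 had 21500000. The part of depth in the difference was not tested.

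mt-Nd5 encodes another complex I subunit from the opposite strand (11742 to 13565, plus). It had 163, 258 and 273 scaled FPKM in RA, 352, 590.1 and 376 in HO and 301, 275 and 312 in the HO-rWNT5A libraries. The order of the libraries was like that of mt-Nd6, with RA replicate 1 lowest and HO replicate 2 highest. The log2 difference of HO and RA was 0.92 ± 0.22 (limma adjusted p = 0.0622), and 0.45 (adjusted p = 0.135) without both of those libraries. It passed without HO replicate 3 (adjusted p = 0.0474) and with quantile normalization (0.0464). The ratio of the levels of mt-Nd6 and mt-Nd5 was 1.05 to 1.40 in RA, 1.48 to 1.55 in HO and 1.44 to 1.58 in the HO-rWNT5A libraries.

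The 3' ends of mt-Nd5 and mt-Nd6 overlap by 14 bases on opposite strands, shown because the 2 genes with the largest mRNA differences meet there. Below are the last 40 bases of each gene, each 5′ to 3′ on its own strand (GRCm38), with the shared bases in capitals.
mt-Nd5 (13526 to 13565, plus): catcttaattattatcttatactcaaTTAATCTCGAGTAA
mt-Nd6 (13552 to 13591, minus): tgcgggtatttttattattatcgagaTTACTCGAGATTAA
Outside these 14 bases each of the genes is annotated on 1 strand only.

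The higher values did not extend to mt-Cytb. mt-Cytb, the complex III subunit that follows on the plus strand (14145 to 15288), had 384, 375 and 436 scaled FPKM in RA, 356, 258 and 322 in HO and 295, 324 and 342 in the HO-rWNT5A libraries. All RA libraries were above all others. Its log2 difference in HO against RA was -0.36 ± 0.12 (limma adjusted p = 0.146). Per library, the level of mt-Nd6 was 0.44 to 0.96 times that of mt-Cytb in RA, 1.46 to 3.54 times in HO and 1.30 to 1.61 times in the HO-rWNT5A libraries. In mt-Nd6 and mt-Cytb the same library, HO replicate 2, held the extreme HO value, high in the former and low in the latter. On the other side, the ratio of mt-Nd5 to mt-Nd4, the mRNA upstream of it on the plus strand, was 1.20 to 2.20 in RA, 2.60 to 4.39 in HO and 2.29 to 2.55 in the HO-rWNT5A libraries.

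**Figure D3:**
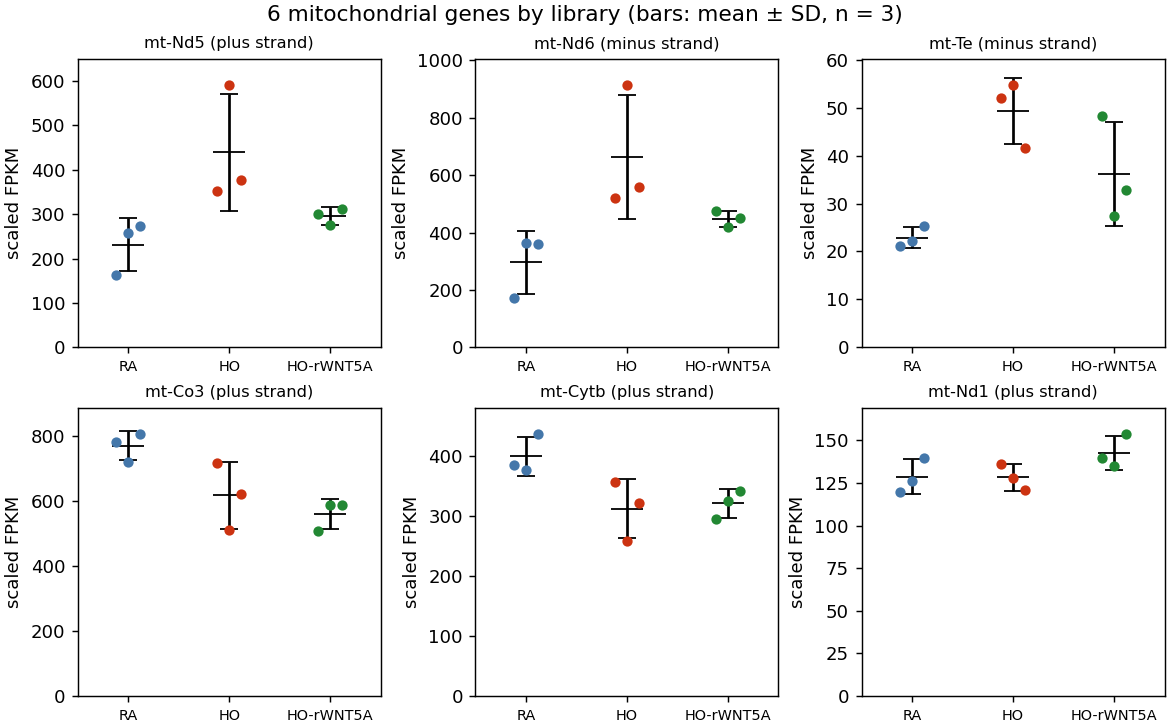
Scaled FPKM of 6 mitochondrial genes in each library, with the mean and SD of the 3 libraries of a group, on axes that start at 0. mt-Nd5, mt-Nd6 and mt-Te are higher in all HO libraries than in all RA libraries, mt-Co3 and mt-Cytb are lower, and mt-Nd1 overlaps between those groups.

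Of the complex IV mRNAs, mt-Co3 (8607 to 9390, plus) had 781, 719 and 805 scaled FPKM in RA, 717, 510.5 and 621 in HO and 506, 588 and 586 in the HO-rWNT5A libraries. All RA libraries were above all others, by little in RA replicate 2 against HO replicate 1. The log2 difference in HO was -0.33 ± 0.12 (limma adjusted p = 0.193). mt-Co1 (5328 to 6872, plus) had 2123, 2043 and 2248 in RA, 2227, 1888 and 2074 in HO and 1979, 2031 and 2245 in the HO-rWNT5A libraries, with a log2 difference of -0.054 ± 0.12 (adjusted p = 0.840). Its groups overlapped in every comparison, as did those of mt-Co2, whose libraries ranged from 264 to 327. The ratio of mt-Co3 to mt-Co1 was 0.352 to 0.368 in RA, 0.270 to 0.322 in HO and 0.256 to 0.289 in the HO-rWNT5A libraries.

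The other complex I mRNAs varied less than mt-Nd5 and mt-Nd6. mt-Nd1 (2751 to 3707, plus), the mRNA nearest to the rRNAs, had 119.9, 126 and 139.7 scaled FPKM in RA, 136, 128 and 121 in HO and 139.7, 135 and 154 in the HO-rWNT5A libraries. These groups overlapped, and HO and RA differed by -0.0022 ± 0.078 on the log2 scale (limma adjusted p = 0.991). mt-Nd3 (9459 to 9806, plus), the mRNA with the lowest level, had 28.3, 30.6 and 36.6 in RA, 24.9, 21.5 and 26.0 in HO and 27.3, 28.9 and 31.3 in the HO-rWNT5A libraries. All HO libraries were below all others, with a log2 difference of -0.38 ± 0.10 from RA that did not pass (adjusted p = 0.0859). mt-Nd2, mt-Nd4 and mt-Nd4l overlapped between HO and RA, with adjusted p from 0.580 to 0.890. The summed level of the 5 complex I mRNAs other than mt-Nd5 and mt-Nd6 was 396 to 479 in RA, 404 to 447 in HO and 411 to 481 in the HO-rWNT5A libraries.

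mt-Atp6 (7927 to 8607, plus) encodes the ATP synthase subunit that forms part of the proton path. It had 232, 232 and 295 scaled FPKM in RA, 304, 253 and 237 in HO and 246, 233 and 259 in the HO-rWNT5A libraries. The groups overlapped, with a log2 difference of 0.064 ± 0.12 in HO (limma adjusted p = 0.803). mt-Atp8, which shares 43 bases and a transcript with mt-Atp6, kept a ratio to it within a narrow range: mt-Atp6 was at 4.46 to 5.09 times the level of mt-Atp8 in the 9 libraries.

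After mt-Te, the proline tRNA mt-Tp (15356 to 15422, minus), the last gene on the chromosome, came nearest to the threshold. It had 10.7, 9.19 and 11.8 scaled FPKM in RA, 16.7, 13.2 and 15.1 in HO and 14.3, 12.2 and 13.4 in the HO-rWNT5A libraries. All RA libraries were below all others, and HO differed by 0.47 ± 0.10 on the log2 scale (limma adjusted p = 0.0504). mt-Tp passed in 5 of 21 alternatives. The methionine tRNA mt-Tm (3845 to 3913, plus), which in mitochondria serves both initiation and elongation, had 9.07, 9.88 and 9.21 in RA, 13.4, 14.9 and 11.6 in HO and 15.0, 11.8 and 11.1 in the HO-rWNT5A libraries. Again all RA libraries were lowest (log2 difference 0.46 ± 0.11, adjusted p = 0.0699), and mt-Tm passed without HO replicate 3 (adjusted p = 0.0330). Both rest on few fragments, roughly 14 to 26 per library for mt-Tp and 16 to 23 for mt-Tm.

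The isoleucine and glutamine tRNAs next to mt-Tm had the same order of groups. mt-Ti (3706 to 3774, plus) had 20.7, 17.2 and 16.7 scaled FPKM in RA, 24.6, 22.8 and 21.6 in HO and 21.8, 18.6 and 16.6 in the HO-rWNT5A libraries. mt-Tq (3772 to 3842, minus) had 18.5, 16 and 14.8 in RA, 21.3, 21.3 and 18.8 in HO and 20.1, 16.7 and 16.1 in the HO-rWNT5A libraries. In both, HO lay above RA with no overlap and HO-rWNT5A overlapped both groups. The log2 differences of HO and RA were 0.33 ± 0.10 and 0.30 ± 0.10 (limma adjusted p = 0.143 and 0.152). The tryptophan tRNA mt-Tw (4950 to 5016, plus) had 7.23, 4.61 and 6.87 in RA, 8.48, 9.79 and 7.39 in HO and 8.13, 7.11 and 5.92 in the HO-rWNT5A libraries. Its groups HO and RA did not overlap either, by little (0.41 ± 0.16, adjusted p = 0.196).

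In the other direction, the lysine tRNA mt-Tk (7700 to 7764, plus) had 6.29, 6.75 and 6.19 scaled FPKM in RA, 4.40, 4.10 and 5.03 in HO and 5.56, 4.38 and 6.52 in the HO-rWNT5A libraries. All HO libraries were below all RA libraries, on 5 to 11 fragments per library, with a log2 difference of -0.43 ± 0.11 (limma adjusted p = 0.0890). The tyrosine tRNA mt-Ty had 45.6, 42.8 and 52.0 in RA, 43.6, 37 and 39.4 in HO and 38.5, 35.6 and 38.6 in the HO-rWNT5A libraries. HO overlapped RA and HO-rWNT5A did not, with log2 differences from RA of -0.22 ± 0.082 and -0.31 ± 0.082 (adjusted p = 0.196 and 0.0651).

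The most abundant tRNA, mt-Ts1 for serine, had 74.0, 66.1 and 85.9 scaled FPKM in RA, 89.1, 79.9 and 77.2 in HO and 77.7, 70.5 and 91.7 in the HO-rWNT5A libraries. Its groups overlapped (log2 difference 0.13 ± 0.11 in HO, limma adjusted p = 0.586). The threonine tRNA mt-Tt (15289 to 15355, plus), next to mt-Tp and on the other strand, had 16.9, 19.8 and 22.9 in RA, 22.3, 20.2 and 20.9 in HO and 24.7, 20.5 and 24.9 in the HO-rWNT5A libraries. It overlapped too (0.092 ± 0.11, adjusted p = 0.692). The ratio of mt-Te to mt-Tt was 1.11 to 1.24 in RA, 1.99 to 2.71 in HO and 1.32 to 1.96 in the HO-rWNT5A libraries. By contrast, the ratio of mt-Te to mt-Nd6, which it adjoins on the same strand, overlapped between all groups. That ratio was 0.0615 to 0.124 in RA, 0.0599 to 0.100 in HO and 0.0650 to 0.101 in the HO-rWNT5A libraries. mt-Te is shorter than a read, and whether its fragments came from the cut tRNA or from a longer RNA was not tested. mt-Tc for cysteine had 24.5, 20.6 and 24.6 in RA, 23.7, 18.5 and 19.3 in HO and 20, 18.6 and 19.3 in the HO-rWNT5A libraries (-0.18 ± 0.096 in HO, adjusted p = 0.366). mt-Tl2 for leucine had 13.0, 10.7 and 11.5 in RA, 16.2, 12.2 and 12.6 in HO and 10.6, 10.1 and 11.7 in the HO-rWNT5A libraries (0.20 ± 0.11, adjusted p = 0.369). The other 6 tRNAs tested overlapped between HO and RA, with log2 differences from -0.017 for mt-Ts2 to 0.40 for mt-Td, on at most 18 fragments per library.

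The rRNA mt-Rnr2 had 0.904, 0.828 and 1.21 scaled FPKM in RA, 1.14, 1.74 and 1.34 in HO and 1.65, 1.59 and 1.94 in the HO-rWNT5A libraries. HO overlapped RA, while HO-rWNT5A was above every RA library. The log2 differences from RA were 0.28 ± 0.12 in HO and 0.46 ± 0.12 in the HO-rWNT5A libraries (limma adjusted p = 0.251 and 0.0562). mt-Rnr1, under the filter, had 0.0329, 0.0180 and 0.0265 in RA, 0.0629, 0.0969 and 0 in HO and 0, 0.0423 and 0.0888 in the HO-rWNT5A libraries, on at most 2 fragments. Among the untested tRNAs, mt-Tl1 had 0.187, 0.217 and 0.492 in RA, 0.077, 0 and 0.0305 in HO and 0.394, 0.403 and 0 in the HO-rWNT5A libraries, at most 1 fragment in any library, so nothing can be read from its order.

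No test was run on the sums of a class. The mRNA sum was 4863 ± 365 scaled FPKM in RA, 5125 ± 199 in HO and 4747 ± 258 in the HO-rWNT5A libraries (SD, n = 3 each), with all groups overlapping. Without mt-Nd5 and mt-Nd6 it was 4335 ± 287, 4023 ± 398 and 4002 ± 251. The sign of the difference in HO against RA thus turned with those 2 genes, from 0.078 to -0.11 on the log2 scale. With nuclear copies added to the genes they copy, the full mRNA sum differed by 0.034. The tRNA sum was 288 ± 23.8 in RA, 334 ± 24.7 in HO and 302 ± 27.1 in the HO-rWNT5A libraries, and its minus-strand part without mt-Te 186 ± 20.2, 193 ± 13.8 and 182 ± 12.2. The plus-strand tRNA sum was 75.9 to 80.2 in RA and 85.5 to 98.8 in HO, with no overlap, and 78.6 to 90.7 in the HO-rWNT5A libraries, which overlapped both. The rRNA sum, nearly all of it mt-Rnr2, was 1.01 ± 0.206 in RA, 1.46 ± 0.336 in HO and 1.77 ± 0.221 in the HO-rWNT5A libraries, where HO overlapped RA and HO-rWNT5A lay above it. tRNAs made up 5.29% to 5.92% of the mitochondrial FPKM sum in RA, 5.93% to 6.34% in HO and 5.59% to 6.69% in the HO-rWNT5A libraries, which overlapped both. These are shares of FPKM, not of fragments.

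The comparison of HO-rWNT5A with HO asks what the recombinant protein changed in hyperoxia. No mitochondrial gene passed. The genes with the largest positive differences of HO and RA had lower mean levels with the protein. mt-Nd5 and mt-Nd6 lay below every HO library in all 3 HO-rWNT5A libraries, and mt-Te did so in 2. mt-Nd3 had higher values with it. This comparison and HO against RA share the HO libraries, so an extreme HO value pulls them in opposite directions.

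Of 32 members tested 0 passed in limma, where 0.00723% of all genes, a single gene, did. 1 member was higher and 5 were lower at an unadjusted p under 0.05, against 4.53% and 4.66% of all genes (9.2% in all), and the smallest adjusted p was 0.499. Groups did not overlap in 1 member that was higher (mt-Nd3) and 4 that were lower (mt-Nd5, mt-Nd6, mt-Th and mt-Tl2), against 6.26% and 6.69% of all genes. Differences were negative in 21 members and positive in 11, with a median of -0.082 beside 0.0018 over all genes. The log2 difference was -0.53 ± 0.22 for mt-Nd5 (limma adjusted p = 0.512), -0.52 ± 0.28 for mt-Nd6 (0.596) and -0.47 ± 0.18 for mt-Te (0.499). mt-Th, a histidine tRNA, had 0.504 to 1.16 scaled FPKM with the protein and 1.76 to 2.80 without, on 1 to 4 fragments (-0.71 ± 0.20, adjusted p = 0.499). mt-Nd3 stood at 0.26 ± 0.10 (adjusted p = 0.502), and mt-Co1, mt-Co3, mt-Cytb, mt-Atp6 and mt-Rnr2 overlapped between the groups.

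HO-rWNT5A against RA compares the cells given both hyperoxia and the protein with cells given neither, and here too no mitochondrial gene passed. 0 of 32 members passed in limma, where 4.25% of all genes did, 2.39% as higher and 1.86% as lower. At an unadjusted p under 0.05, 5 were higher and 5 lower, against 10.8% and 10.1% of all genes. Groups did not overlap in 6 members that were higher, mt-Rnr2, mt-Tm, mt-Nd5, mt-Nd6, mt-Te and mt-Tp, and in 5 that were lower, mt-Tc, mt-Ty, mt-Co3, mt-Th and mt-Cytb. Those are 18.8% and 15.6% of the members tested, close to the 16.3% and 16.5% of all genes. The smallest adjusted p was the 0.0562 of mt-Rnr2. mt-Co3 differed by -0.46 ± 0.12 on the log2 scale (limma adjusted p = 0.0651), mt-Cytb by -0.31 ± 0.12 (0.161), mt-Te by 0.60 ± 0.18 (0.0846), mt-Nd6 by 0.67 ± 0.28 (0.209) and mt-Tm by 0.38 ± 0.11 (0.0814). Fitted on these 2 groups alone, 5 members passed, mt-Rnr2 and mt-Tm as higher and mt-Ty, mt-Co3 and mt-Cytb as lower. Calls rose over all genes too, with 1329 of 13877 passing in that fit, against 588 of 13832 in the fit over 9 libraries.

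Part of the mitochondrial chromosome has copies in the nuclear genome, and annotated ones are listed in the same table. A search of the members against all GENCODE M21 transcripts found 16 nuclear copies of 11 mRNA genes, at an identity of at least 90% over at least 100 bases and over at least 50% of the copy. The tRNAs are shorter than that minimum, so the search could not find copies of them. Of the 16, 7 had an identity of at least 99%, and all 7 lie in 1 block of chromosome 1 (24611535 to 24616197, minus, GRCm38). They copy mt-Co1 in part, mt-Co2, mt-Atp6, mt-Co3, mt-Nd3, mt-Nd4l and mt-Nd4 in part, in the order of the mitochondrial chromosome. Their spacing there is also that of the mitochondrial chromosome, to within 1 base. On the mitochondrial chromosome 5 tRNAs, mt-Ts1, mt-Td, mt-Tk, mt-Tg and mt-Tr, and the mRNA mt-Atp8 lie between these genes. Whether the block holds their sequence was not tested, since no genome sequence was used.

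The near-identical copies were listed at nearly the level of the gene they copy. Gm28437, identical to mt-Co3 over 783 bases, stood at 100.1% to 100.2% of the level of mt-Co3 in the 9 libraries, and Gm28661 and Gm10925 at 100.3% to 100.5% of mt-Co2 and 100.7% to 100.9% of mt-Atp6. Gm10222, a copy of mt-Nd4l, was at 100.9% to 101.7%. The partial copies departed from this. Gm28439, identical to the first 876 bases of mt-Nd4, was at 65.4% to 92.5% of mt-Nd4, and Gm29216, which covers 483 bases of mt-Co1, at 35.9% to 42.4% of mt-Co1. How reads that fit several places were counted is not given in the sources used here, so levels of these 7 mitochondrial genes are uncertain.

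Gm28438 differs from mt-Nd3 at 1 of 345 bases, T3C, with positions counted from 1 at the start of the gene. It is shown because most stretches of 150 bases, the length of a read, are the same in both. The first 40 bases of each, 5′ to 3′, have the differing base in capitals.
mt-Nd3: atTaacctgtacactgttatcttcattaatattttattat
Gm28438: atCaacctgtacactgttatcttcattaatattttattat
Gm28438 stood at 103.6% to 112.2% of the level of mt-Nd3. Its log2 difference in HO against RA was -0.36 ± 0.097 (limma adjusted p = 0.0923), beside -0.38 ± 0.10 for mt-Nd3.

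The 2 mRNAs with the largest differences in HO against RA, mt-Nd5 and mt-Nd6, have no copy in that block. mt-Nd3 (log2 difference -0.38) and mt-Co3 (-0.33) do. The tRNA mt-Tk (-0.43) lies between genes copied there, and mt-Te, like the other tRNAs, could not be searched for copies. mt-Nd5, mt-Nd6, mt-Cytb, mt-Nd1 and mt-Nd2 have no copy with an identity of at least 99% among the annotated transcripts. The 9 more diverged copies had means of at most 1.82 scaled FPKM. Gm11408, which covers all 519 bases of mt-Nd6 on chromosome 4 (80003396 to 80003914, minus), differs at 33 of them (identity 93.6%) and was listed at 0 in all libraries. Bases 255 to 314 of both are shown, where 11 of 60 letters (in capitals) differ.
mt-Nd6: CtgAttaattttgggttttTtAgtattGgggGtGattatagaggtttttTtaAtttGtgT
Gm11408: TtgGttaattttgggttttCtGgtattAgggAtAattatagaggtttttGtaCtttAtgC
Copies of mt-Nd5 and mt-Cytb beside it on chromosome 4, Gm11407 and Gm11410, were at most at 0.0283 and 0.0108 in any library.

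**Figure D4:**
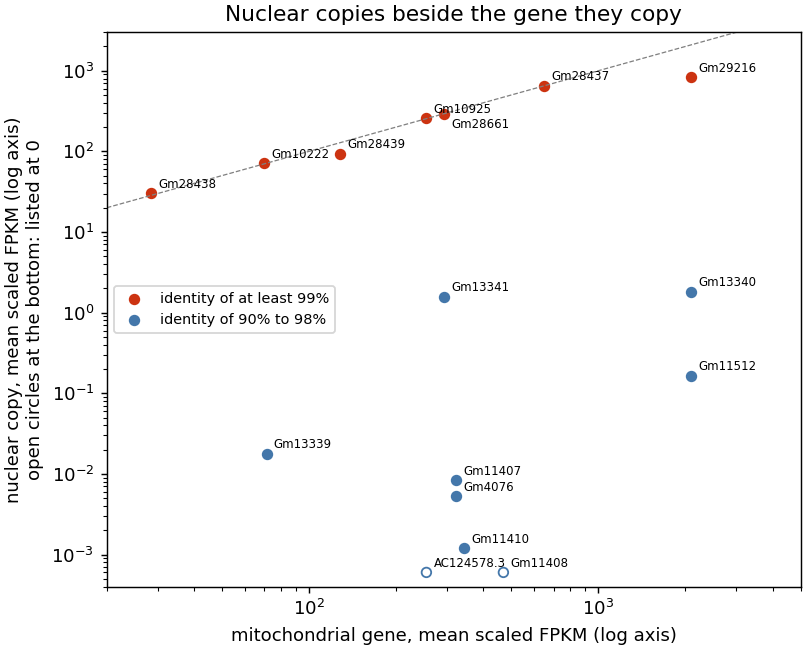
Mean scaled FPKM of each of 16 nuclear copies against that of the mitochondrial gene it copies, both on log axes, red for an identity of at least 99% and blue for less, with a dashed line at equal levels. The full-length near-identical copies lie on the line, the partial copies Gm28439 and Gm29216 below it, and the 9 diverged copies at or under 1.82.

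The nuclear genes that make and handle mitochondrial RNA were taken from lists of known factors. In HO against RA, 1 of 14 tested genes of mitochondrial transcription was higher and 0 were lower, as was 1 of 78 mitochondrial ribosomal proteins. None passed among 21 genes of mitochondrial DNA replication and the nucleoid, 23 of RNA processing and decay, 31 of tRNA and rRNA modification and 16 translation factors. Together 2 of 183 genes tested passed, where 1.97% of all genes did. At an unadjusted p under 0.05 the 6 lists together held 13 higher and 13 lower of 183 genes tested (counting a gene such as Tfam in each list that holds it), 7.1% each way, against 9.68% and 8.47% of all genes. The ribosomal proteins held 6 higher and 2 lower of these and the transcription genes 3 and 1, while replication had 0 and 3, processing 1 and 3, modification 3 and 1 and translation factors 0 and 3. The median log2 differences of the 6 lists lay between -0.035 and 0.099, beside -0.0039 over all genes. In HO-rWNT5A against HO 0 genes of any list passed in limma, with 7 higher and 10 lower of the 183 at an unadjusted p under 0.05 (3.83% and 5.46%, against 4.53% and 4.66% of all genes). The mitochondrial ribosomal proteins held 3 of those higher and 9 of those lower, of 78. In HO-rWNT5A against RA 3 of the 183 passed, which are named below, where 4.25% of all genes did. At an unadjusted p under 0.05 in limma, 13 were higher and 17 lower (7.1% and 9.29%, against 10.8% and 10.1% of all genes).

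The transcription gene that rose was Esrra, a nuclear receptor that activates genes of mitochondrial metabolism, from 13.7 ± 0.616 scaled FPKM in RA to 17.4 ± 0.291 in HO (log2 difference 0.33 ± 0.052, limma adjusted p = 0.0198). It was also higher in HO-rWNT5A (0.32 ± 0.052, adjusted p = 0.0119). The core machinery differed less in HO. Polrmt, the mitochondrial RNA polymerase, differed by 0.13 ± 0.062 (limma adjusted p = 0.306). Tfam, which packages the DNA and takes part in its transcription, differed by 0.092 ± 0.061 (0.459), and Tfb2m, the initiation factor, by 0.11 ± 0.066 (0.428). Tfb1m, which methylates the small rRNA, fell in HO-rWNT5A against RA, from 2.23 ± 0.0175 to 1.55 ± 0.0695 (-0.34 ± 0.077, adjusted p = 0.0394), and had -0.24 ± 0.077 in HO (adjusted p = 0.149). Nrf1, a regulator of nuclear genes for respiration, had 0.21 ± 0.070 in HO (adjusted p = 0.147).

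Mrps14, a protein of the small mitochondrial ribosomal subunit, rose from 12.4 ± 0.860 in RA to 17.0 ± 1.16 scaled FPKM in HO (log2 difference 0.42 ± 0.088, limma adjusted p = 0.0425). Mrps6, of the same subunit, rose in HO-rWNT5A against RA, from 39.4 ± 1.6 to 55.9 ± 1.77 (0.50 ± 0.066, adjusted p = 0.00547), with 0.26 ± 0.066 in HO (adjusted p = 0.0782). Mrpl9 of the large subunit had 0.26 ± 0.064 in HO (adjusted p = 0.0675). Lig3, the ligase that seals mitochondrial DNA, had the smallest p of the replication list at -0.29 ± 0.065 in HO (adjusted p = 0.0552). In that list the helicase Twnk and the polymerase Polg were at adjusted p of 0.904 and 0.635.

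Of the processing genes, Fastkd2, an RNA-binding protein of mitochondria, had -0.23 ± 0.075 in HO against RA on the log2 scale (limma adjusted p = 0.151). Tbrg4, of the same family, had 0.17 ± 0.067 (0.22), and Rexo2, an exonuclease for short RNA, -0.13 ± 0.051 (0.227). Lrpprc, which stabilises mitochondrial mRNAs, had -0.11 ± 0.050 (0.268), and Elac2, which cuts the 3' end of tRNAs, -0.074 ± 0.054 (0.507). Of the modification genes, Trmt61b, a methyltransferase for mitochondrial tRNA, was at 0.862 ± 0.331 scaled FPKM in RA and 1.70 ± 0.176 in HO (0.55 ± 0.16, adjusted p = 0.117). Mtif2, the mitochondrial initiation factor of translation, had -0.21 ± 0.080 (adjusted p = 0.203). None of these passed.

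Of these calls in nuclear genes, those of Esrra, Mrps14 and Tfb1m were lost when single libraries were left out and under other settings. Esrra in HO against RA was lost in 6 of 21 alternatives: with any RA library left out (limma adjusted p = 0.0694 to 0.0800), with RA replicate 1 and HO replicate 2 left out together (0.137), with equal total FPKM (0.132) and on the 2 groups alone (0.0682). In HO-rWNT5A against RA it was lost in 4, with equal total FPKM (0.0912), without RA replicate 1 (0.0569), without HO-rWNT5A replicate 2 (0.0518) and without RA replicate 1 and HO replicate 2 together (0.0506). Mrps14 was lost in 11 of 21, with any RA library or HO replicate 1 or 2 left out (adjusted p = 0.0643 to 0.150), and also with equal total FPKM (0.131), no filter (0.128), no variance trend (0.0574) and the 2 groups alone (0.0636) among others. Tfb1m was lost in 11 of 20, with any of the 6 libraries left out (0.0860 to 0.140), and also with equal total FPKM (0.119), no filter (0.0792) and scaling to the nuclear protein-coding total (0.0641) among others. Mrps6 passed in all 21 alternatives, with adjusted p of 0.00208 to 0.0338.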

How the data were processed

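RNA of 9 libraries was sequenced as 150-base pairs by the authors. Per the labels' protocols, libraries were made with a total RNA kit for human, mouse or rat, adapters were trimmed with Skewer 0.2.2, the Ensembl genome served for alignment by STAR 2.5.3a, StringTie 1.3.1 assembled and merged transcripts, and gffcompare 0.9.9c matched them to Ensembl genes. FastQC 0.11.2 and DESeq2 stand in the submitters' processing notes as well, and so do the builds mm10 and hg38, without roles. Removal of rRNA and the use of strand are not given in the sources used here. The deposited values are FPKM, per the file headers, for 143043 transcripts, and no column of the table was left unmapped.

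Names came from GENCODE M21 (GRCm38), in which 141441 of 142351 Ensembl identifiers were found. FPKM was summed per gene, and libraries were scaled by the median ratio to the geometric mean (factors 0.943 to 1.04). The 692 assembled transcripts were summed per assembled locus, and each Ensembl transcript not found stood as its own gene. With reference transcripts alone, 13379 genes were tested. After a filter (mean of 1 FPKM or more) and a pseudocount of 1, differences were fitted by limma 3.58.1 under R 4.3.3 (1 fit over 9 libraries, variance trend, two-sided, threshold 0.05). This fit was tested on simulated data. Log2 differences on the FPKM + 1 scale understate the change of low genes. Depth was estimated from the commonest product of FPKM and length, held by 28 to 81 of the 7671 to 8232 transcripts used per library. Only 4.66% to 5.84% of values were whole multiples of 1 fragment within 0.02, so no count test was run. So low a share gives the depths, their order among libraries and the fragment numbers little support. Copies were sought with BLAST 2.17.0, and Python 3.11.15 served for tables (numpy 2.4.6, pandas 2.3.3) and plots (matplotlib 3.10.9).

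The members, lists and tests were chosen with earlier results of these data known. Members are named with every library where they passed, or where HO and RA did not overlap at an unadjusted p under 0.05. mt-Nd1, mt-Co1, mt-Atp6, mt-Cytb, mt-Nd6, mt-Rnr1, mt-Rnr2, mt-Te and 5 more tRNAs of the highest level are named whatever their value. Of nuclear lists, up to 3 genes by smallest p in HO against RA are named, and Polrmt, Tfam, Tfb2m, Lrpprc, Elac2, Twnk and Polg whatever their value. The genes Mrps6 and Tfb1m are named for their calls in HO-rWNT5A against RA. Alternatives were other pseudocounts (0.1, 5), a filter at 5 FPKM or none, 4 other scalings, no variance trend, a robust variance, the replicate number as a block, the 2 groups alone, reference transcripts alone and each library left out. Leaving out RA replicate 1 with HO replicate 2, and adding nuclear copies to the gene they copy, were chosen after seeing the data.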

Additional observations from a re-analysis of the deposited data

How the results depend on the processing

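The count of mitochondrial genes past the threshold in HO against RA was 1 (mt-Te), and it was 0 with no filter and 0 without RA replicate 1 and HO replicate 2 together. It was 2 with a mean of at least 5 FPKM, 2 with a robust variance, 2 with the replicate block and 2 with reference transcripts alone, where mt-Tp passed too, and 3 with quantile normalization, with mt-Tp and mt-Nd5. Leaving out each library gave 0 to 3. Without RA replicates 1, 2 or 3 or HO replicate 2 it was 0, and without HO replicate 3 it was 3 (mt-Te, mt-Nd5 and mt-Tm). In HO-rWNT5A against HO the count was 0 in all 21 alternatives. In HO-rWNT5A against RA it was 0, but 2 with FPKM as deposited (mt-Ty and mt-Co3, lower), 1 with scaling to the nuclear protein-coding total (mt-Tm, higher), 1 with no variance trend (mt-Rnr2, higher) and 5 on the 2 groups alone. Over all genes 588 passed there without these changes, 824 with FPKM as deposited and 1329 on the 2 groups alone. With the nuclear total and with no variance trend 538 passed each. The causes were not tested.

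Of 57 single-gene results, 1111 of 1192 alternative values kept direction and side of the threshold, 38 lost a call, 17 gained one and 26 changed sign. Those that changed sign had no adjusted p under 0.752 in limma. With each library left out in turn, these were, in HO against RA, mt-Nd1 (-0.051 to 0.059), mt-Co1 (-0.11 to 0.0073), mt-Atp6 (-0.040 to 0.18) and mt-Tt (-0.014 to 0.20). In HO-rWNT5A against HO they were mt-Cytb (-0.079 to 0.15), mt-Tm (-0.19 to 0.0079), mt-Co1 (-0.044 to 0.073) and mt-Atp6 (-0.17 to 0.0094), and in HO-rWNT5A against RA mt-Ti (-0.042 to 0.15), mt-Tw (-0.0080 to 0.27), mt-Co1 (-0.092 to 0.00055) and mt-Atp6 (-0.089 to 0.086). Without RA replicate 1 and HO replicate 2 together, mt-Co1 went to 0.0029 in HO against RA and to -0.045 in HO-rWNT5A against HO, where mt-Cytb went to -0.080 and mt-Tm to 0.0070. Quantile normalization turned mt-Nd1 in HO against RA (0.016) and mt-Co3 in HO-rWNT5A against HO (0.0022). In HO-rWNT5A against RA, FPKM as deposited turned mt-Ti (-0.010) and nuclear copies added to the gene turned mt-Co1 (0.0088).

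The labels do not say whether libraries with the same replicate number belong together. Of 9 same-numbered pairs, 3 deviated together with r over 0.1 (range -0.117 to 0.279). Pairs with unlike numbers had r from -0.251 to 0.172. The replicate block is therefore only a hint from the data. With it the calls of Mrps14 in HO against RA (limma adjusted p = 0.0675) and Tfb1m in HO-rWNT5A against RA (0.0699) were lost. Over all genes, HO against RA called 167 higher and 105 lower, but 103 and 179 with FPKM as deposited, 26 and 29 with equal totals, 67 and 48 with the replicate block, 34 and 29 on the 2 groups alone, 42 and 27 with no filter, 2 and 0 without RA replicate 2 and 415 and 292 without HO replicate 3. Depth limits the 19 of 22 tRNAs that by the rough estimate rest on fewer than 50 fragments in every library, and mt-Rnr1, which rests on at most 2.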
